A study of Mus musculus with 6 samples.

Results

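Imprinted genes, whose parental copies are unequally active, were measured in ovaries of newborn mice. The list holds 39 genes whose names were matched to the gene names of the deposited table, and each of the 39 was found on 1 row of its 47122 gene models. By textbook assignment 20 of them are expressed from the paternal allele, 16 from the maternal allele, some of these only in placenta or brain, and 3 (Grb10, Ddc and Gnas) from either allele depending on the tissue or transcript. Whole ovaries were taken at 1 day post partum (dpp) and their total RNA was sequenced. The labels give 3 WT samples and 3 samples titled BCAS2 cKO, a conditional knockout in which Bcas2, a gene for a pre-mRNA splicing factor, was removed from oocytes. The sources used here name no Cre driver, deleted exons or strain and do not say whether ovaries were pooled. Nothing says that the samples came from separate animals, and p-values therefore measure only how far these samples spread, which may be technical. A description label mentions granulosa cells, while titles, tissue and design text give ovary.

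Imprinted genes depend on methylation marks, set in the egg or sperm, that tell the parental copies apart in the offspring, where 1 copy is less active or silent. Many of them sit in domains controlled together by a shared imprinting control region. Paternally expressed members such as Igf2, Dlk1, Mest and Peg3 are classed with growth and mesenchyme genes of the fetus and newborn, while maternally expressed members such as H19, Cdkn1c and Igf2r tend to restrain growth. In the ovary the somatic cells keep these marks, whereas germ cells erase them before birth and oocytes set the maternal marks only as they grow, so newborn oocytes hold copies without them. RNA totals per gene do not show which parental copy was read, so imprinting itself was not measured.

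Each library held 16800421 to 19565275 reads, as recovered from the deposited values. Values listed together stand in the order of replicates 1, 2 and 3. Bcas2, in FPKM (fragments relative to gene length and sequencing depth), read 54.5, 37.5 and 35.7 for WT against 18.9, 21.9 and 18.3 for cKO. These groups did not overlap, a log2 fold change of −1.05 with SE 0.17 and an exact two-sided permutation p = 0.1, the smallest that 3 against 3 samples can give, and limma's adjusted p = 0.955. Oocyte markers (8 of 8 tested) had a summed FPKM of 648 to 974.5 for WT and 682 to 917 for cKO. Pregranulosa markers (7 of 7 tested) summed to 336 to 472 for WT and 374 to 443 for cKO, so the labelled tissue was present. Of these 7, groups did not overlap for 1 (all genes 7.88%), Rspo1, higher in cKO. Its log2 fold change was 0.36 (SE 0.12), with a p under 0.05 before adjustment and limma's adjusted p = 0.955. Of 4 placental markers, Prl3b1, Tpbpa and Prl8a9 were listed at 0 in all 6 libraries, and Psg17 was at 0.716 to 1.66 FPKM. WT replicate 1 stood apart: 6 stroma markers other than Dcn summed to 982 FPKM there against 259.5 to 433 FPKM in the other 5 libraries, 7 endothelial markers to 142.5 against 30.9 to 47.65 FPKM, and 7 pericyte and smooth muscle markers to 85.6 against 16.3 to 24.8 FPKM. Its 6 surface epithelium markers summed to 196 against 407 to 523 FPKM. Of 6 mesonephros and oviduct epithelium markers, Pax8 (log2 fold change 0.75 (SE 0.20)), Cldn3 (1.24 (SE 0.19)) and Foxj1 (0.59 (SE 0.17)) were higher in every cKO library than in any WT library, at a p under 0.05 before adjustment and with limma's adjusted p = 0.955, 0.883 and 0.955. The mean log2(FPKM + 1) of the 5 tested markers was 2.67, 2.71 and 2.62 for WT against 3.235, 3.11 and 3.31 for cKO. The summed FPKM of all 6 overlapped, at 75.35, 89.01 and 76.5 for WT against 80.2, 86.97 and 99 for cKO. Epcam and Emx2 had overlapping groups, with log2 fold changes of 0.29 (SE 0.26) and −0.13 (SE 0.18), and Wnt7a was below the filter. The part of such tissue in the members' differences was not tested. In cKO replicate 2, 6 erythroid markers summed to 13230 FPKM against 400.2 to 1201 FPKM in the other 5. In WT replicate 2, immediate-early response genes summed to 462 FPKM against 32.3 to 146 FPKM in the other 5. In whole tissue, fewer cells of a type and less RNA per cell cannot be told apart.

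No imprinted gene passed the test between cKO and WT ovaries. Genes entered the test when they reached 1 FPKM in at least 3 of the 6 libraries, which 29 of the 39 members did: 14 of 20 paternally expressed, 13 of 16 maternally expressed and 2 of the 3 others. In limma on log2(FPKM + 1), with Benjamini-Hochberg adjustment over all 14589 genes tested, neither a rise nor a fall of any member met an adjusted p under 0.05, and 0 members were called, where 0% of all genes were called. The smallest adjusted p of a member was 0.955. Unadjusted, 3 members had a p under 0.05, Cdkn1c, Copg2 and Igf2r, all maternally expressed, or 10.3% of those tested, beside 3.04% of all genes tested. Cdkn1c was higher in cKO, as were 1.89% of all genes at that p, and Copg2 and Igf2r were lower, as were 1.14%. Limma-voom on the recovered reads called 0 members and had 2 at an unadjusted p under 0.05, beside 2.61% of all genes. That limma count depended on the libraries. It was 8 without WT replicate 3 (all genes 7.24%), 2 without cKO replicate 3 (4.81%), 1 without WT replicate 1 (3.61%), WT replicate 2 (3.3%) or cKO replicate 1 (2.01%), and 0 without cKO replicate 2 (1.73%).

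Median differences were small in both parental classes, while estimates of single members ran from −0.50 to 0.30. The median log2 fold change was −0.12 over the 14 tested paternally expressed members, 10 of them below 0 and 4 above, and −0.043 over the 13 maternally expressed members, 7 below 0 and 6 above. The same median was −0.0058 over all genes tested, of which 51.3% were below 0. Without WT replicate 1 the signs turned, with medians of 0.10 for paternally and 0.030 for maternally expressed members and −0.0031 for all genes. Without cKO replicate 2 the maternal median was also above 0, at 0.035. Group values did not overlap for 3 tested members, Cdkn1c and Zrsr1 higher in cKO and Copg2 lower, or 10.3%, beside 7.88% of all genes (4.2% higher and 3.67% lower in cKO). The 95% interval of a member, before adjustment, reached 0.42 to either side of the estimate in the median and 1.196 for Plagl1. Larger changes could also miss the adjusted threshold. Bcas2 did so, with a log2 fold change of −1.05, SE 0.17 and limma's adjusted p = 0.955.

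**Figure D1:**
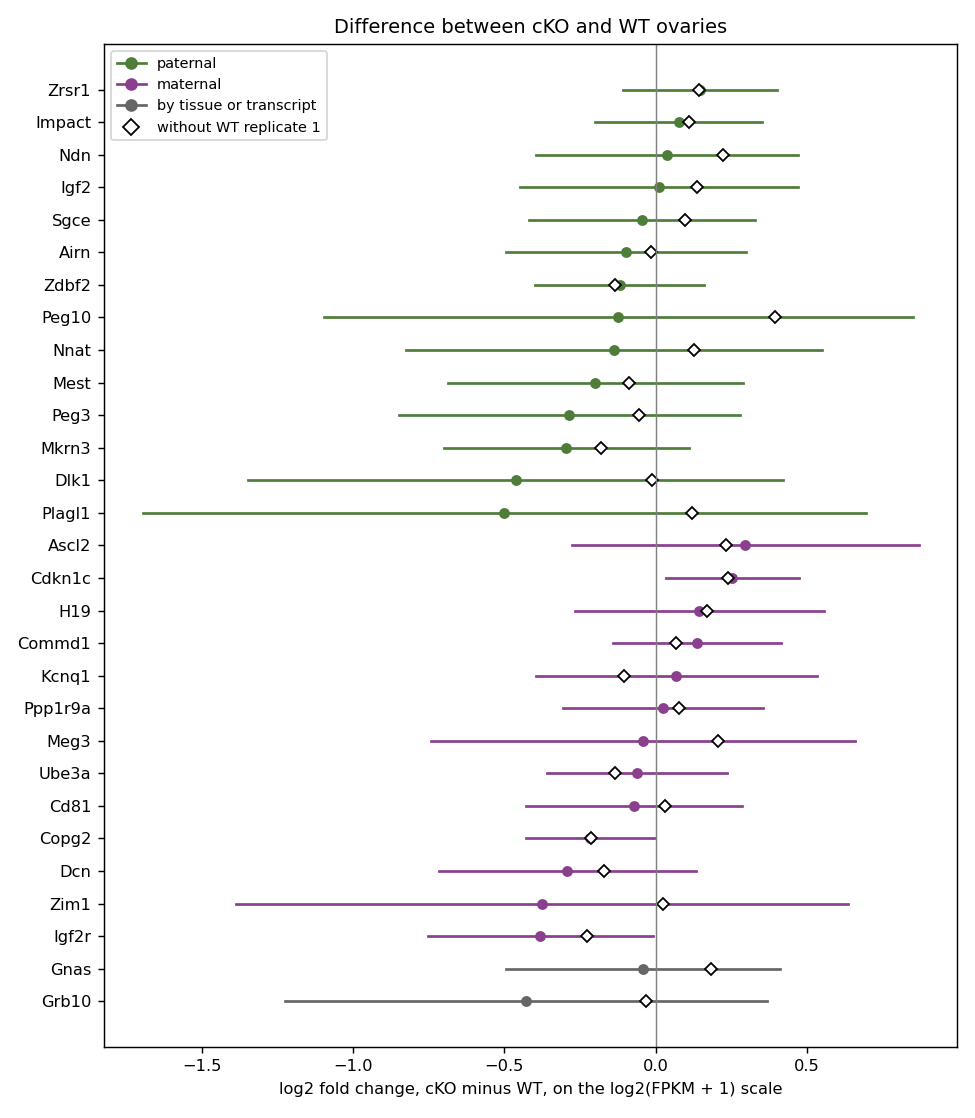
Log2 fold change of each tested imprinted gene, cKO minus WT, on the log2(FPKM + 1) scale, with the 95% limma interval as a line and its colour giving the parental class; open diamonds give the estimate without WT replicate 1. Only Cdkn1c, Copg2 and Igf2r have intervals that leave out 0 before adjustment, and the diamonds of Plagl1, Dlk1, Peg10, Grb10 and Zim1 lie far to the right of their filled points.

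Promoter sequence was compared next, because ZFP57, the zinc finger protein that keeps imprints through early development, binds the letters TGCCGC when they are methylated. RefSeq start sites on GRCm38.p6 were found for 31 of the 39 members, as 49 windows of 300 bases, from 250 bases before to 50 after a start. TGCCGC on either strand was in 13 of these windows (26.5%), 8 of 25 of paternally and 4 of 16 of maternally expressed members, beside 11.6% of all 32851 windows in the same reference. Windows of 1 gene can overlap, as in Mest, and the members' windows held a median of 15 CpG pairs against 7 over all windows. A match is a description of letters, not of binding or of methylation here. The stretches below, on the plus strand of GRCm38.p6 and outside annotated exons, show the matches of 4 members described further on, with the motif or its reverse complement GCGGCA in capitals.
Plagl1, chr10:13090720-13090769: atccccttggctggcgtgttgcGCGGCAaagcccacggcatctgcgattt
Mest, chr6:30737961-30738010: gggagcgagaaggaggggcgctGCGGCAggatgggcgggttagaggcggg
Zdbf2, chr1:63200181-63200278: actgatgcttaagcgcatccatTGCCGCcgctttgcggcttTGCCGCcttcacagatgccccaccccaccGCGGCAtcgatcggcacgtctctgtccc
Meg3, chr12:109540784-109540833: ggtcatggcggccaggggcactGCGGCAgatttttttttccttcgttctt
The Zdbf2 stretch holds 3 matches between 155 and 107 bases before a start site. Each of the other stretches holds 1, and a second match in the same Mest window is not shown. The matches shown lie 90 bases before a start for Plagl1, 67 for Mest and 190 for Meg3.

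H19 and Igf2 were the most abundant of the 39 genes by mean FPKM. Igf2 encodes a fetal growth factor read from the paternal copy, and H19, a noncoding RNA read from the maternal copy, shares enhancers with it under a control region bound by CTCF. All further coordinates are GRCm39, as in the deposited table. H19 lies on chromosome 7 from 142129267 to 142131883 and ranked 35 among all rows of the table by mean FPKM. Its level was 758, 847 and 608.5 FPKM (WT replicates 1, 2 and 3) against 757, 748 and 933 FPKM (cKO replicates 1, 2 and 3). Both groups overlapped, with the lowest value in WT replicate 3 and the highest in cKO replicate 3 (limma log2 fold change 0.14 with 95% limits of −0.27 and 0.56, SE 0.17, adjusted p = 0.955). Igf2, on chromosome 7 from 142204505 to 142220566, was at 158, 133 and 109.7 FPKM (WT replicates 1, 2 and 3) against 132, 108 and 165 FPKM (cKO replicates 1, 2 and 3). Its groups had nearly equal means, 134 ± 24.05 FPKM for WT against 135 ± 28.7 FPKM for cKO (SD, n = 3 each), and a log2 fold change of 0.010 with 95% limits of −0.45 and 0.47, SE 0.19, with an adjusted p = 0.996 in limma. The H19 estimate was below 0 with quantile normalization and with array weights, and that of Igf2 with TPM and quantile scaling.

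Cdkn1c was the member with the smallest p. It encodes p57, an inhibitor of cyclin-dependent kinases, is read from the maternal copy under the Kcnq1ot1 control region, and lies on chromosome 7 from 143012076 to 143014802. Its level was 81.5, 80.9 and 87.6 FPKM (WT) against 94.4, 98.2 and 106 FPKM (cKO). All 3 cKO libraries lay above all 3 WT libraries, and WT replicate 3 came nearest. Means were 83.3 ± 3.71 FPKM for WT against 99.6 ± 6.08 FPKM for cKO (SD, n = 3 each), a log2 fold change of 0.25 with 95% limits of 0.035 and 0.47, SE 0.093, limma's adjusted p = 0.955. Without WT replicate 1 the estimate was 0.24 and it stayed above 0 in each alternative run, while its unadjusted p was above 0.05 after TPM scaling, quantile normalization, the replicate block, or leaving out WT replicate 1, WT replicate 2, cKO replicate 2 or cKO replicate 3.

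The other genes of this distal chromosome 7 domain did not pass the test or the filter. Kcnq1ot1, the noncoding RNA whose transcription silences the paternal domain, was at 0.312 to 0.461 FPKM over a gene length of 83437 bases, 508 to 669 reads a library, and stayed below the filter. Kcnq1, a potassium channel gene on the opposite strand that contains all of it, was at 9.97, 16.7 and 12.96 FPKM (WT) against 12.8, 11.99 and 16.3 FPKM (cKO). WT replicate 1 was lowest and the groups overlapped (limma log2 fold change 0.068 with 95% limits of −0.40 and 0.53, SE 0.20, adjusted p = 0.978), with a sign that turned without WT replicate 1 or cKO replicate 3 and under TPM scaling and array weights. Cd81, a tetraspanin of the cell surface imprinted in placenta, was at 104, 94.6 and 74.5 FPKM (WT) against 85.8, 76.75 and 95.8 FPKM (cKO). Overlap was complete here too, with cKO values inside the WT range (limma log2 fold change −0.072 with 95% limits of −0.43 and 0.29, SE 0.15, adjusted p = 0.974). Ascl2, a transcription factor needed for placental trophoblast, was low at 2.135 ± 0.774 FPKM for WT against 2.85 ± 0.965 FPKM for cKO (SD, n = 3 each), resting on 44 to 107 reads. Slc22a18, a transporter gene, and Phlda2, which restrains placental growth, stayed below 1 FPKM in every library with 7 to 14 and 1 to 7 reads.

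In the Dlk1 and Meg3 domain of chromosome 12, WT replicate 1 held the highest value of both tested genes. Dlk1, a paternally expressed Notch-like membrane protein of mesenchymal progenitors, lies on chromosome 12 from 109418411 to 109429262 and was at 85.8, 38.8 and 27.99 FPKM (WT replicates 1, 2 and 3) against 36.3, 28.2 and 34.15 FPKM (cKO replicates 1, 2 and 3). That single WT library was 2.59 times the mean of the other 5, and the remaining WT and cKO values overlapped. The log2 fold change was −0.46 with 95% limits of −1.35 and 0.42, SE 0.37, with an adjusted p = 0.955 in limma, and −0.011 without WT replicate 1. Meg3, the maternally expressed noncoding RNA of the domain, was at 23.9, 16.9 and 11.3 FPKM (WT) against 22.5, 14.4 and 12.8 FPKM (cKO). Its highest values were in WT replicate 1 and cKO replicate 1, so the order of libraries differed from that of Dlk1 (limma log2 fold change −0.043 with 95% limits of −0.74 and 0.66, SE 0.30, adjusted p = 0.991, and 0.21 without WT replicate 1). Rtl1, a retrotransposon-derived gene needed in placenta, had 60 to 154 reads over 30955 bases and did not reach 1 FPKM. Its span overlaps those of Meg3 and Rian on the other strand, and without a stated strand setting their reads cannot be told apart.

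In the Peg3 domain of proximal chromosome 7, WT replicate 1 was highest and WT replicate 3 lowest for both tested genes. Peg3, a paternally expressed zinc finger gene, lies on chromosome 7 from 6706891 to 6733443 and was at 124.5, 93.1 and 63.3 FPKM (WT replicates 1, 2 and 3) against 80.3, 64.6 and 77.6 FPKM (cKO replicates 1, 2 and 3). WT replicates 1 and 2 were highest and WT replicate 3 lowest, around all the cKO values. Means were 93.6 ± 30.6 FPKM for WT against 74.2 ± 8.38 FPKM for cKO (SD, n = 3 each), with a log2 fold change of −0.29 with 95% limits of −0.85 and 0.28, SE 0.24, an adjusted p = 0.955 in limma, and −0.055 without WT replicate 1. Zim1, its maternally expressed zinc finger neighbour, was at 20.1, 12.04 and 5.43 FPKM (WT) against 11.98, 6.83 and 6.96 FPKM (cKO), again highest in WT replicate 1 and lowest in WT replicate 3. Its log2 fold change was −0.38 with 95% limits of −1.39 and 0.64, SE 0.43, with an adjusted p = 0.955 in limma, and 0.026 without WT replicate 1. Usp29, a paternally expressed ubiquitin protease gene that starts beside Peg3 on the other strand, ranged from 0.580 to 1.16 FPKM and reached 1 FPKM in 2 libraries, short of the filter.

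Copg2 was lower in all cKO libraries than in any WT library, though it did not pass after adjustment. It encodes a coatomer subunit of vesicle transport, and its maternal bias is known from some tissues only. Copg2, on chromosome 6 from 30747552 to 30873729, was at 19.3, 18.4 and 19.96 FPKM (WT replicates 1, 2 and 3) against 16.03, 15.7 and 17.5 FPKM (cKO replicates 1, 2 and 3). No value crossed between the groups, and the gap between WT replicate 2 and cKO replicate 3 was under 1 FPKM. The log2 fold change was −0.22 with 95% limits of −0.43 and −0.0020, SE 0.090, limma's adjusted p = 0.955, and −0.21 without WT replicate 1. Mest, a paternally expressed gene of mesodermal tissue with sequence similarity to hydrolases, was at 11.1, 11.3 and 6.55 FPKM (WT) against 8.44, 7.05 and 8.75 FPKM (cKO). WT replicates 1 and 2 were high and WT replicate 3 low, around the cKO values (limma log2 fold change −0.20 with 95% limits of −0.69 and 0.29, SE 0.21, adjusted p = 0.955). The table gives Mest a length of 31852 bases, 11.95 times its longest GENCODE M21 basic transcript, so its FPKM is per that longer model. The same ratio was 6.17 for Impact, 4.87 for Rtl1, 2.58 for Ppp1r9a, 2.29 for Gnas, 2.001 for Usp29, 1.97 for Snrpn and 0.447 for Ndn, so levels of these genes and their passing of the filter rest on the table's length. The spans of Mest and Copg2, on opposite strands, overlap by 36029 bases.

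Among tested members of the proximal chromosome 6 domain, Peg10 had the widest gap between WT replicate 1 and the rest. It is a paternally expressed retrotransposon-derived gene needed for placenta formation, lies on chromosome 6 from 4747306 to 4760517, and was at 71.3, 23.2 and 24.1 FPKM (WT replicates 1, 2 and 3) against 28.8, 28.8 and 37.4 FPKM (cKO replicates 1, 2 and 3). Apart from WT replicate 1, the remaining WT libraries lay below all 3 cKO libraries. With all libraries the log2 fold change was −0.12 with 95% limits of −1.096 and 0.85, SE 0.41, with an adjusted p = 0.983 in limma. Without WT replicate 1 it turned to 0.39, with a p under 0.05 before adjustment and an adjusted p = 0.9998 in limma. Sgce, the epsilon-sarcoglycan gene that starts beside Peg10 on the other strand and is also paternally expressed, was at 31.25, 25.8 and 20.5 FPKM (WT) against 26.7, 24.9 and 22.7 FPKM (cKO). It varied less, with overlapping groups (limma log2 fold change −0.045 with 95% limits of −0.42 and 0.33, SE 0.16, adjusted p = 0.983). Ppp1r9a, for the actin-binding protein neurabin, was at 5.07 ± 0.837 FPKM for WT against 5.14 ± 0.401 FPKM for cKO (SD, n = 3 each), with a log2 fold change of 0.025. Asb4, an ankyrin repeat and SOCS box gene, was at 1.45 FPKM in WT replicate 1 and 0.365 to 0.821 FPKM in the other 5, below the filter.

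Igf2r had an estimate further below 0 than that of Copg2, and it too did not pass after adjustment. It encodes the receptor that removes IGF2 for degradation, is maternally expressed outside neurons, and lies on chromosome 17 from 12901293 to 12988593. Its level was 42.6, 28.9 and 32.2 FPKM (WT) against 25.01, 24.1 and 29.1 FPKM (cKO). WT replicate 1 was highest, and cKO replicate 3 stood just above WT replicate 2, so the groups overlapped. Means were 34.6 ± 7.14 FPKM for WT against 26.04 ± 2.66 FPKM for cKO (SD, n = 3 each), with a log2 fold change of −0.38 with 95% limits of −0.75 and −0.0088, SE 0.16, limma's adjusted p = 0.955, and −0.23 without WT replicate 1. Airn, the paternally expressed noncoding RNA that silences Igf2r, overlaps it on the other strand and was at 5.56, 4.92 and 4.165 FPKM (WT) against 5.71, 3.88 and 3.997 FPKM (cKO). The groups overlapped (limma log2 fold change −0.10 with 95% limits of −0.49 and 0.30, SE 0.17, adjusted p = 0.963), on 143 to 217 reads. Grb10, an adaptor that dampens insulin and IGF receptor signals, was at 56.2, 28.2 and 20.6 FPKM (WT) against 26.5, 19.98 and 24.5 FPKM (cKO). Here too WT replicate 1 was far above the rest (limma log2 fold change −0.43 with 95% limits of −1.23 and 0.37, SE 0.34, adjusted p = 0.955, and −0.033 without that library). Its neighbour Ddc, for aromatic amino acid decarboxylase, stayed below 1 FPKM in all libraries.

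Zrsr1 and Commd1 of chromosome 11 had positive estimates. Zrsr1, a paternally expressed gene related to a U2 splicing factor subunit, lies inside Commd1 on the other strand, where reads may be shared, and was at 3.96, 4.03 and 3.97 FPKM (WT) against 4.41, 4.245 and 4.92 FPKM (cKO). WT values were nearly equal and all lay below the cKO values, with means of 3.98 ± 0.0364 FPKM for WT against 4.52 ± 0.350 FPKM for cKO (SD, n = 3 each), a log2 fold change of 0.15 with 95% limits of −0.11 and 0.40, SE 0.11, and limma's adjusted p = 0.955. Commd1, a gene of copper handling and NF-kappa-B control, was at 10.03, 12.1 and 11.5 FPKM (WT) against 11.7, 13.98 and 11.65 FPKM (cKO). Its groups overlapped, with cKO replicate 2 highest (limma log2 fold change 0.14 with 95% limits of −0.14 and 0.42, SE 0.12, adjusted p = 0.955).

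The central chromosome 7 domain, the mouse counterpart of the Prader-Willi and Angelman region, had 3 tested members. Ndn, a paternally expressed MAGE family gene, was at 78.4, 60.45 and 46.8 FPKM (WT replicates 1, 2 and 3) against 58.9, 61.35 and 66.5 FPKM (cKO replicates 1, 2 and 3). The cKO values lay inside the WT range, which ran from replicate 3 to replicate 1 (limma log2 fold change 0.037 with 95% limits of −0.40 and 0.47, SE 0.18, adjusted p = 0.986). Mkrn3, a paternally expressed ubiquitin ligase gene linked to the timing of puberty, was at 3.38, 2.20 and 2.72 FPKM (WT) against 1.89, 1.79 and 2.51 FPKM (cKO). The groups overlapped through cKO replicate 3, with a log2 fold change of −0.30 with 95% limits of −0.70 and 0.11, SE 0.17, and an adjusted p = 0.955 in limma, on 77 to 151 reads. Ube3a, a ubiquitin ligase gene imprinted in neurons, was at 12.5 ± 1.12 FPKM for WT against 11.97 ± 1.57 FPKM for cKO (SD, n = 3 each) and had a log2 fold change of −0.063 with 95% limits of −0.36 and 0.24, SE 0.13. Magel2, another MAGE family gene, reached at most 0.652 FPKM. Snrpn, for a core splicing protein, was listed at 0.01405 to 0.116 FPKM on 1 to 8 reads. Snurf, which lies wholly inside Snrpn on the same strand, was listed at 0 in all 6 libraries, and both lie inside Snhg14 on that strand. The sources used here do not say how reads shared by overlapping models were counted, so the level of Snrpn was not established.

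Among the genes outside these domains, Plagl1 had the largest spread. It is a paternally expressed zinc finger transcription factor that is known to regulate other imprinted genes, and it lies on chromosome 10 from 12966576 to 13007438. Its level was 55.8, 17.3 and 12.3 FPKM (WT) against 20.4, 14.7 and 13.55 FPKM (cKO). WT replicate 1 was 3.57 times the mean of the other 5 libraries, among which the groups overlapped. The log2 fold change of −0.50 with 95% limits of −1.697 and 0.70, SE 0.51, adjusted p = 0.955, became 0.12 without it. Gnas, which encodes the stimulatory G protein alpha subunit beside several imprinted transcripts, was at 129.8, 85.4 and 77.4 FPKM (WT) against 89.9, 96.4 and 90.7 FPKM (cKO). WT replicate 1 lay above a band that held the other 5 (limma log2 fold change −0.041 with 95% limits of −0.49 and 0.41, SE 0.19, adjusted p = 0.986).

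Dcn, for the matrix proteoglycan decorin, is imprinted in placenta only and served also as a stroma marker. It was at 123, 116 and 78.1 FPKM (WT) against 91.7, 79.85 and 82.1 FPKM (cKO). WT replicates 1 and 2 were high and WT replicate 3 was the lowest of all, so the groups overlapped (limma log2 fold change −0.29 with 95% limits of −0.72 and 0.13, SE 0.18, adjusted p = 0.955). Nnat, a paternally expressed membrane protein gene inside an intron of Blcap, was at 37.4, 27.9 and 16.0 FPKM (WT) against 27.45, 19.8 and 22.9 FPKM (cKO). WT replicates 1 and 3 marked its highest and lowest values (limma log2 fold change −0.14 with 95% limits of −0.83 and 0.55, SE 0.29, adjusted p = 0.974). Zdbf2, a paternally expressed zinc finger gene, was at 4.79 ± 0.309 FPKM for WT against 4.34 ± 0.461 FPKM for cKO (SD, n = 3 each), with a log2 fold change of −0.12. Impact, a translational control gene and a paternally expressed member, was at 2.93 ± 0.168 FPKM for WT against 3.15 ± 0.222 FPKM for cKO (SD, n = 3 each), with a log2 fold change of 0.076.

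Below the filter, groups did not overlap for 6.64% of all genes with a value above 0 in any library. Among the 10 untested members, groups did not overlap for 1, Nap1l5. This paternally expressed gene, which lies inside an intron of Herc3 on the other strand, was at 0.3635, 0.456 and 0.351 FPKM (WT replicates 1, 2 and 3) against 0.152, 0.220 and 0.171 FPKM (cKO replicates 1, 2 and 3). All cKO values were below all WT values, on 5 to 15 reads a library. With no filter on low values its log2 fold change was −0.24, with limma's adjusted p = 0.907.

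Levels of the imprinted genes differed widely among the WT libraries. WT replicate 1 was the highest of the 6 libraries for 15 of 29 tested members (51.7%), beside 27.6% of all genes tested, and WT replicate 3 the lowest for 14 (48.3%), beside 17.9%. It was at least 2 times the mean of the other 5 for 5 members, Plagl1, Dlk1, Peg10, Grb10 and Zim1, or 17.2%, beside 4.35% of all genes. Paternally expressed members were highest there in 8 of 14 cases and maternally expressed members in 5 of 13. It was the lowest library for 3 members, Kcnq1, Zrsr1 and Commd1, or 10.3%, beside 28.7% of all genes, and Cdkn1c, H19, Ube3a and Ascl2 were also below the mean of the other 5 there. The median SD of the tested members within a group, on the log2(FPKM + 1) scale, was 0.29 in WT and 0.17 in cKO, against 0.19 and 0.14 over all genes. The sums of stroma (without Dcn), endothelial and pericyte markers given above were also highest in WT replicate 1 and lowest in WT replicate 3. Each of their 6, 7 and 7 markers was highest in WT replicate 1. Pregranulosa sums had the same highest and lowest library, at 472, 431 and 336 FPKM in WT and 374, 393 and 443 in cKO. So did macrophage sums, at 23.9, 19.85 and 16.6 FPKM in WT and 21.45, 16.8 and 21.9 in cKO. Singly, 3 of 7 pregranulosa and 2 of 5 tested macrophage markers were highest in WT replicate 1. Oocyte markers summed to 657, 648 and 974.5 FPKM in WT and 735, 917 and 682 FPKM in cKO, lowest in WT replicate 2. The part of these cell types in the members' levels was not tested.

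**Figure D2:**
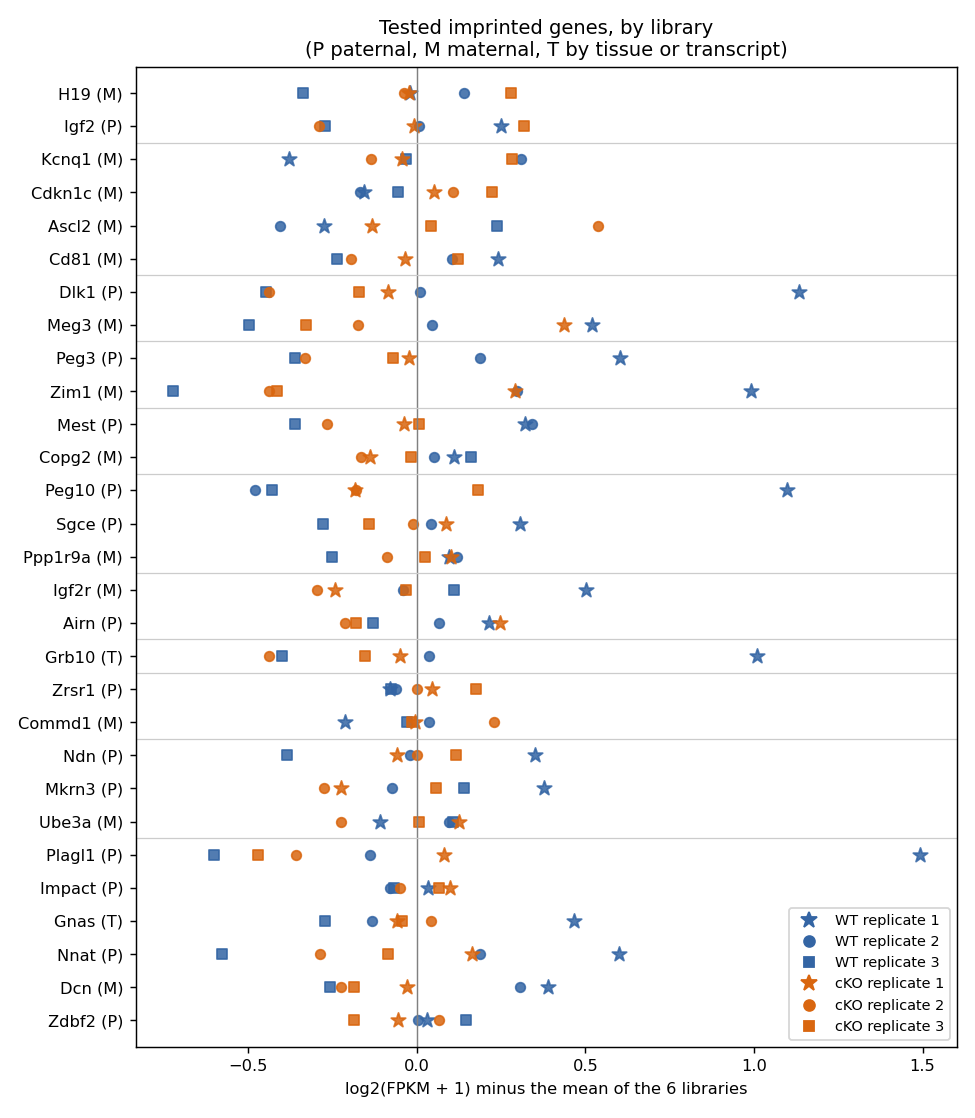
Level of each tested imprinted gene in each library, as log2(FPKM + 1) minus the gene's mean over the 6 libraries; WT libraries are blue, cKO libraries orange, stars are replicate 1, circles replicate 2 and squares replicate 3, and grey lines part the domains. The blue star of WT replicate 1 is the rightmost point for 15 of the 29 genes, and the blue square of WT replicate 3 is the leftmost for 14.

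**Figure D3:**
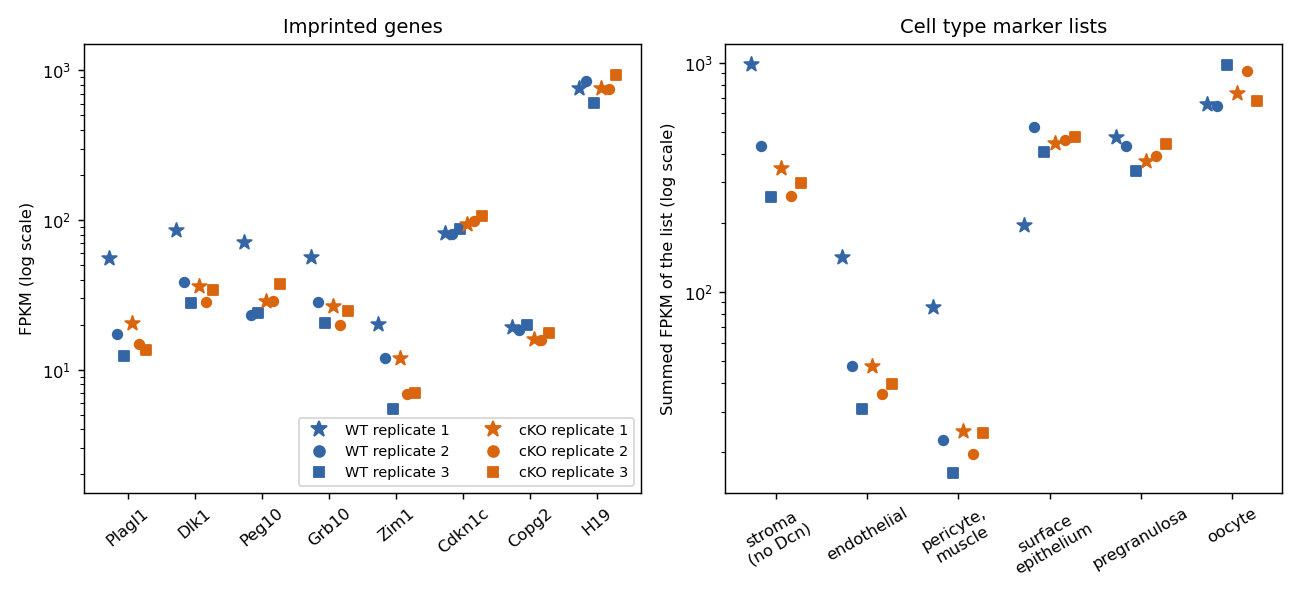
FPKM of 8 imprinted genes (left) and summed FPKM of 6 cell type marker lists (right) in each library, both on log axes, with symbols for the libraries as in the key. WT replicate 1 lies above the other 5 libraries for Plagl1, Dlk1, Peg10, Grb10 and Zim1, and not for Cdkn1c, Copg2 or H19. It also lies above them for the stroma, endothelial and pericyte lists and, by less, for the pregranulosa list (472 against at most 443 FPKM).

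Ratios of neighbours under shared control were read within each library, as the log2 ratio of their FPKM, for the 7 of 11 listed pairs with both genes tested. The H19 to Igf2 ratio was 2.26, 2.67 and 2.47 in WT and 2.52, 2.79 and 2.495 in cKO, a range of 0.53, so H19 exceeded Igf2 per length in every library. Meg3 to Dlk1 was −1.84, −1.198 and −1.31 in WT and −0.69, −0.97 and −1.41 in cKO, lowest in WT replicate 1 and highest in cKO replicate 1. Sgce to Peg10 ran from −1.19 in WT replicate 1 to 0.15 in WT replicate 2, the widest range of the 7 at 1.35. That pair starts side by side, yet only Peg10 was far higher in WT replicate 1. Zim1 to Peg3 was −2.63, −2.95 and −3.54 in WT and −2.75, −3.24 and −3.48 in cKO, with Peg3 the higher gene throughout. Airn to Igf2r was −2.94, −2.55 and −2.95 in WT and −2.13, −2.63 and −2.86 in cKO, and the ranges of the groups overlapped. Copg2 to Mest averaged 1.04 ± 0.50 in WT and 1.03 ± 0.12 in cKO, and Commd1 to Zrsr1 1.49 ± 0.13 and 1.46 ± 0.24 (SD, n = 3 each). The level of Copg2 to Mest rests on the long Mest model, 11.95 times its longest transcript against 1.13 times for Copg2. It therefore does not show which of these genes had more transcripts. The groups overlapped for all 7 pairs, and no test was made of the ratios.

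**Figure D4:**
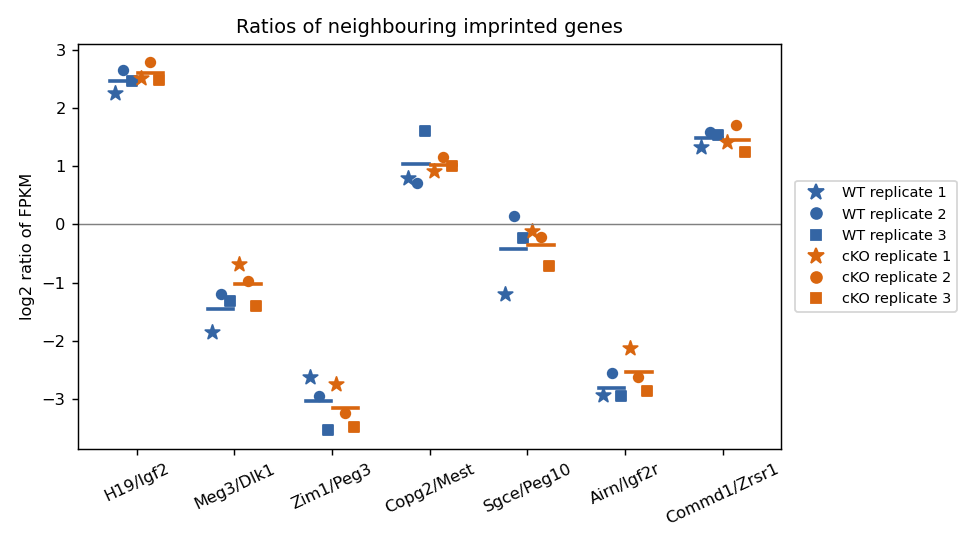
Log2 ratio of FPKM for 7 pairs of neighbouring imprinted genes in each library, with a short line at the mean of each group (WT blue, cKO orange). Groups overlap for every pair, and the Sgce to Peg10 ratio of WT replicate 1 lies below that of the other 5 libraries.

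Genes that set, keep or answer to imprints were read from 3 further lists. Of 20 genes of imprint establishment and maintenance 19 were tested and 0 passed the threshold, with a median log2 fold change of −0.081. Estimates were below 0 for 14 and above for 5, where 51.3% of all genes were below 0, and 0 had an unadjusted p under 0.05. Groups did not overlap for 2, Tet3 and Ehmt2, both lower in cKO, beside 7.88% of all genes (3.67% lower in cKO). Zfp57 itself was at 7.52, 7.21 and 7.57 FPKM (WT) against 7.45, 6.996 and 6.35 FPKM (cKO), with a log2 fold change of −0.091 (SE 0.10). Tet3, a dioxygenase that oxidises methylcytosine, had the smallest p of the list and was at 14.1, 11.5 and 12.4 FPKM (WT) against 11.1, 11.4 and 10.4 FPKM (cKO). Its groups did not overlap (log2 fold change −0.19 (SE 0.11), limma adjusted p = 0.955). Dppa3, which protects imprints after fertilisation and is made by oocytes, was at 338, 369 and 502 FPKM (WT) against 508, 565 and 413 FPKM (cKO), with overlapping groups. Ezh2 and Ehmt2, for histone methyltransferases of H3 lysine residues, had log2 fold changes of −0.16 (SE 0.11) and −0.11 (SE 0.083). Dnmt3l, the cofactor that oocytes need to set maternal imprints during growth, was chosen after its values were seen and lay between 0 and 0.101 FPKM, below the filter.

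IGF signalling genes, which act with Igf2, Igf2r and Grb10, had 14 of 17 members tested, 0 of them past the threshold, and a median log2 fold change of −0.12. Only 1 of the 14, Igf1r, had an unadjusted p under 0.05 in limma (all genes 3.04%). It was also the only 1 whose groups did not overlap (all genes 7.88%, 3.67% lower in cKO). Igf1r, the receptor that carries the IGF2 growth signal, was at 16.3, 11.8 and 12.4 FPKM (WT) against 9.77, 8.31 and 10.7 FPKM (cKO). All cKO values were below all WT values (log2 fold change −0.45 (SE 0.15), limma's adjusted p = 0.955, and −0.31 without WT replicate 1). Irs2, a docking protein of both receptors, read 5.55 ± 1.28 FPKM for WT against 4.05 ± 0.581 FPKM for cKO (SD, n = 3 each), with overlapping groups. Insr, the insulin receptor, read 9.17 ± 1.695 FPKM for WT against 7.41 ± 0.663 FPKM for cKO (SD, n = 3 each), and its groups overlapped as well. Igfbp6, an IGF-binding protein, had a log2 fold change of 0.26 (SE 0.15).

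Of 40 imprinted genes outside the list of 39, 38 were matched by name and 23 were tested. None passed the threshold in limma, 1 had an unadjusted p under 0.05 (all genes 3.04%), and the median log2 fold change was −0.038, with 14 below 0 and 9 above, where 51.3% of all genes were below 0. That gene was Pon3, a paraoxonase gene of the Peg10 domain, at 4.44, 5.77 and 4.98 FPKM (WT) against 4.15, 3.765 and 3.18 FPKM (cKO). Its groups did not overlap (log2 fold change −0.37 (SE 0.14), limma's adjusted p = 0.955). The same held for Inpp5f, also lower in cKO (log2 fold change −0.091 (SE 0.084)). These were 2 of the 23, beside 7.88% of all genes (3.67% lower in cKO). Mirg, a noncoding RNA of the Meg3 domain, was at 3.53, 2.525 and 1.93 FPKM (WT) against 3.76, 3.565 and 3.45 FPKM (cKO), with overlapping groups and a log2 fold change of 0.35 (SE 0.18). Gab1, an adaptor gene, and Osbpl5, an oxysterol-binding protein gene, had log2 fold changes of −0.22 (SE 0.14) and −0.42 (SE 0.28).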

How the data were processed

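RNA sequencing of 1 dpp ovaries was read from 1 table, with groups and replicate numbers from the sample titles and columns matched by the sample descriptions. The authors deposited FPKM values. The aligner HISAT2 2.0.5, mm10 and GRCm39 come from the submitters' processing notes, and coordinates in the table follow GRCm39. No source used here gives the counting tool, annotation release or strand setting. FPKM times gene length, divided by 1 step per library, gave whole reads: 100% of values up to 2000 reads lay within 0.05 of a whole number. Median-of-ratios factors of the deposited values were 1.001 in each library, so they already carried such a scaling.

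Values were tested as log2(FPKM + 1) with limma 3.58.1 in R 4.3.3 (eBayes with trend, two-sided), over genes with at least 1 FPKM in at least 3 of 6 libraries, Benjamini-Hochberg threshold 0.05; folds of low genes are understated. The procedure was checked on simulated data. Exact permutation of 3 against 3 samples cannot go below p = 0.1. Members, parental classes, lists, marker genes and tests were chosen with earlier results of these data known. Values per sample were given for the 8 members of highest mean, those with non-overlapping groups or an unadjusted p under 0.05, and listed pairs, and up to 4 genes of smallest p per further list. Per-sample values of Plagl1, Grb10, Kcnq1, Mkrn3, Nnat and Zfp57 were added after values were seen. Promoter windows came from RefSeq (GRCm38.p6), and transcript lengths and exons from GENCODE M21 (GRCm38), matched by symbol. Alternatives were other pseudocounts (0.1, 0.5), no filter, a filter at 5 FPKM, TPM, median-of-ratios and quantile scaling, a replicate block, no trend, array weights, limma-voom on recovered reads, and leaving out each library.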

Additional observations from a re-analysis of the deposited data

How the results depend on the processing

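The count of 0 called members held under all 17 alternatives in limma or limma-voom, with a smallest adjusted p of 0.288 under array weights. Over all genes the count became 1 with array weights (Mir6999, at most 4 reads) and 0 to 1 when a library was left out (Pcna-ps2, without cKO replicate 2). Bcas2 kept its direction and an unadjusted p under 0.05 throughout, but it was not called in any run either. Its smallest adjusted p in limma was 0.091, with array weights. Median-of-ratios scaling hardly changed the values, so that run nearly repeats the main one. The medians of all, paternally and maternally expressed members ran from −0.19 to 0.066, −0.25 to 0.10 and −0.10 to 0.035 with a library left out, and were −0.15, −0.21 and −0.12 after rescaling to TPM, where the median of all genes was −0.082. No member passed the threshold in any of these. Estimates that changed sign were, with array weights, −0.046 for H19, −0.23 for Kcnq1, 0.11 for Meg3, 0.29 for Peg10, −0.043 for Ppp1r9a and 0.075 for Gnas. After rescaling to TPM the sign changes were −0.071 for Igf2, −0.0071 for Kcnq1, −0.048 for Ppp1r9a and −0.043 for Ndn, and with quantile normalization −0.10 for H19 and −0.046 for Igf2. With a library left out the estimates whose sign changed ran from −0.15 to 0.16 for Igf2, −0.10 to 0.24 for Kcnq1, −0.21 to 0.030 for Cd81, −0.30 to 0.21 for Meg3, −0.83 to 0.026 for Zim1, −0.39 to 0.39 for Peg10, −0.20 to 0.10 for Sgce, −0.10 to 0.091 for Ppp1r9a, −0.15 to 0.22 for Ndn, −0.14 to 0.035 for Ube3a, −0.93 to 0.12 for Plagl1, −0.19 to 0.18 for Gnas and −0.46 to 0.13 for Nnat. The cause was not tested.

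Deviations of same-numbered WT and cKO libraries from their group means correlated at 0.22, 0.014 and −0.028 for replicates 1, 2 and 3 across genes. Deviations of 3 libraries from their own mean depend on each other, so these values cannot show whether same-numbered libraries were paired. Not every library correlated best with its own number. With the replicate block 0 members were called, 1 had an unadjusted p under 0.05, 0 of all genes were called, the median over members was −0.072, and Bcas2 was at −1.05. Depth limits Phlda2, Snrpn, Nap1l5 and Slc22a18, which rest on at most 15 reads in any library.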

Other observations

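Imprinted genes outside the list that were chosen after their values were seen include some of the most abundant of this ovary. Gatm, for an enzyme of creatine synthesis imprinted in placenta, was at 219, 267 and 207 FPKM (WT) against 223, 205.5 and 235 FPKM (cKO). Rian, a noncoding RNA of the Meg3 domain, was at 71.8, 45.5 and 34.97 FPKM (WT) against 57.95, 46.1 and 47.8 FPKM (cKO), highest in WT replicate 1 and lowest in WT replicate 3 as Meg3 was. Th, for the first enzyme of catecholamine synthesis, lies beside Ascl2 and was at 20.95, 28.5 and 38.99 FPKM (WT) against 37.2, 34.7 and 34.4 FPKM (cKO), lowest in WT replicate 1 and highest in WT replicate 3. Peg13 was listed at 0 in all 6 libraries.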
